A study of Mus musculus with 2 samples.

Results

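The genes described here are 39 listed genes of the actin cytoskeleton, among 54838 genes in the count tables of sciatic nerve macrophages. They were taken by name, with earlier results of these data known, and all 39 were found in both tables. They cover the actin monomers, the proteins that bind monomers and turn filaments over, and the Arp2/3 complex. Activators of that complex or of filament growth, coronins, and capping and severing proteins are also on the list. So are linkers to the membrane, crosslinkers, myosin II, adhesion proteins and the intermediate filament protein vimentin. Macrophages of the sciatic nerve, gated as CD64+ CD45int, came from the pooled nerves of 19 male Flt3-Cre LSL-YFP fl/fl mice of 10 to 12 weeks and were sorted into YFP− and YFP+ cells, each sequenced as 1 library of 10x Chromium v2 chemistry. In these mice the Cre is driven by Flt3, a gene of blood progenitors, and a cell keeps YFP once it or a precursor has expressed it, so both groups carry the same alleles and differ by whether that mark was set.

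Macrophages use actin to crawl, to spread between other cells and to engulf. Actin monomers (Actb, Actg1) are kept soluble by thymosins (Tmsb4x, Tmsb10) and recycled by profilin (Pfn1) and cofilin (Cfl1). The Arp2/3 complex starts branches on existing filaments when WASP or WAVE proteins activate it, capping proteins stop growth at filament ends, and myosin II pulls filaments against each other.

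The YFP− library held 1045 cells and the YFP+ library 4053, counted as barcodes with at least 500 UMIs and 200 genes, where a UMI marks 1 captured RNA molecule. They summed to 2418044 and 6747554 UMIs, with medians of 2233 and 1484 UMIs per cell. The study itself reports fewer cells of each library. It also set a limit on mapped reads per cell, which by its account left about as many cells as here. Of the cell barcodes 7 occurred in both libraries. All 9 macrophage markers were detected in both libraries, at a summed 20061 and 20038 CPM, where CPM scales a count to 1000000 UMIs of the same cells. The 6 markers of mural cells, 2 of them at 0 in YFP− cells, summed to 9.10 and 117 CPM, of fibroblasts to 23.6 and 94.6 CPM and of Schwann cells to 696 and 638 CPM, and 10 and 54 cells had at least 1% of their UMIs on such lists. With 1 library per group no test of the sort was possible: the intervals given are exact 95% intervals of the summed counts, and the variation among mice or among sorts is not in them, only the error of counting. A level is the CPM of summed UMIs, and since each UMI marks 1 RNA end it was not scaled by gene length. Ratios are log2 of (CPM + 1), and a gene is called higher or lower past 1.5-fold, among genes with a mean of at least 20 CPM over the 2 sides, which 37 of the 39 genes reached in the comparison of the libraries. Ezr and Vcl did not.

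Most of these genes differed by less than 1.5-fold between the libraries, and Tmsb4x and Actb had the highest levels. The 39 genes together took 3.38% of the UMIs in YFP− and 3.96% in YFP+ cells, and without Actb 2.85% and 2.90%. Tmsb4x (thymosin beta 4, which sequesters actin monomers) was at 17404 CPM (YFP−) and 16714 CPM (YFP+), followed by Actb (beta-actin; chr5:142903115-142906754, minus strand, GRCm38) at 5354 and 10647 CPM. The proteins of monomer binding and turnover held 60.7% and 50.4% of all UMIs on the list, the actin monomers 18.3% and 29.3%, and the Arp2/3 complex 8.59% and 8.13%. Vcl (vinculin, an adhesion protein) was the lowest, at 6.20 and 8.60 CPM from 15 and 58 UMIs.

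**Figure D1:**
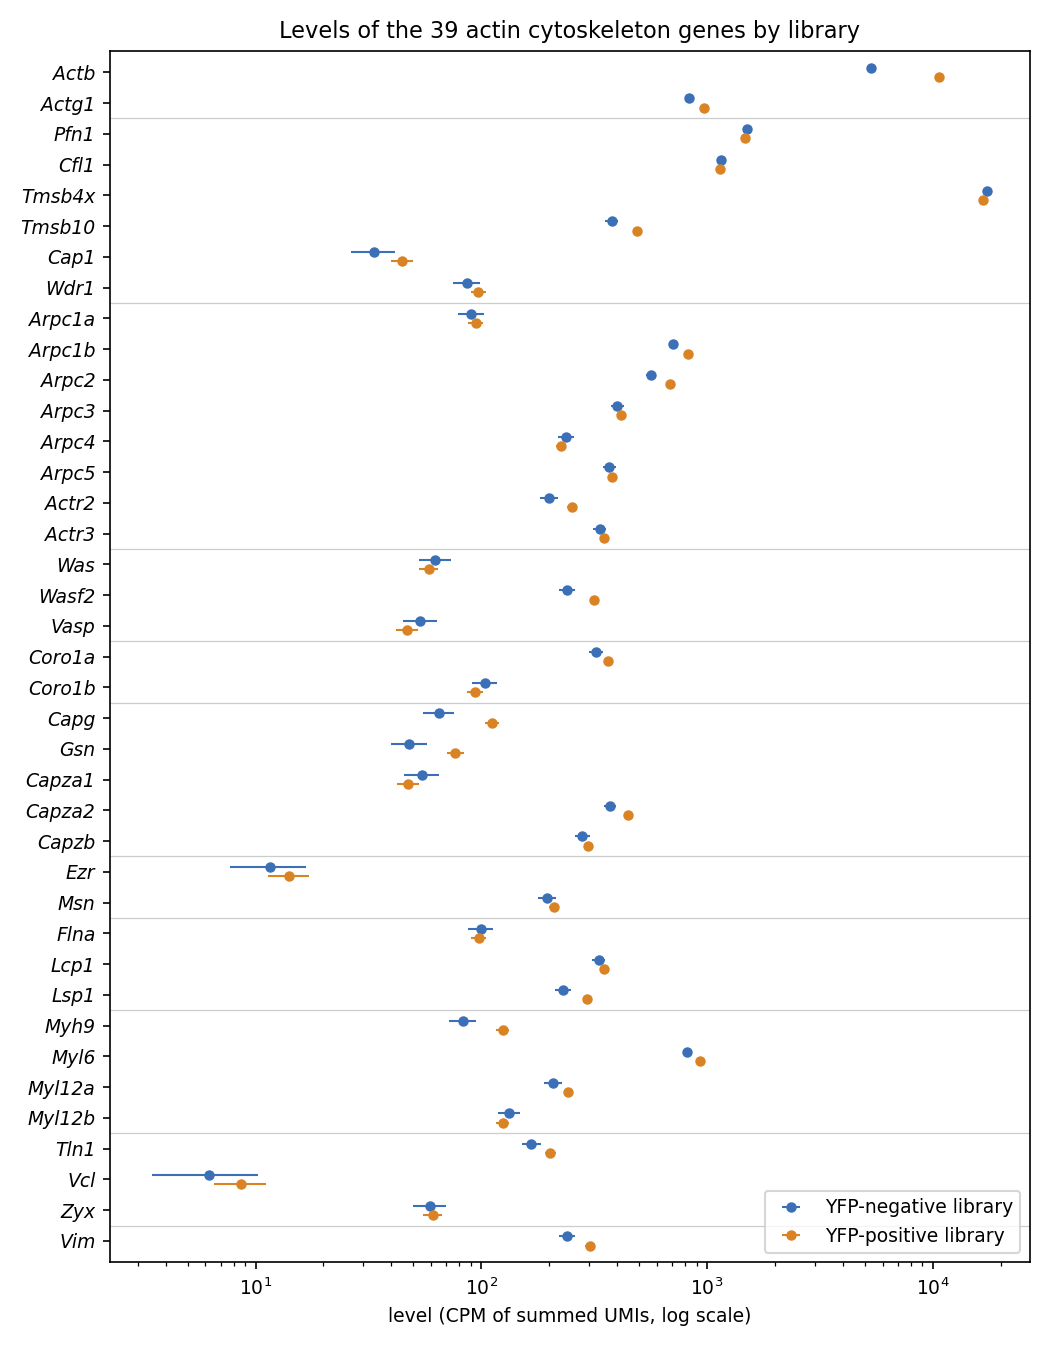
Level of each of the 39 genes in the YFP− (blue) and YFP+ (orange) library, as CPM of UMIs summed over cells on a log axis, with exact Poisson 95% intervals as bars, and grouped by role between the grey lines. Tmsb4x and Actb stand above the rest in both libraries, and Actb has the widest gap between the libraries (5354 against 10647 CPM).

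Among the other monomer-binding and turnover genes, Pfn1 lay at 1499 and 1480 CPM and Cfl1 at 1151 and 1140 CPM. Cap1 (a partner of cofilin in recycling monomers) was the lowest of its role, at 33.5 and 44.6 CPM. In the Arp2/3 complex the levels ran from Arpc1b, 709 and 823 CPM, to Arpc1a, 90.2 and 94.4 CPM: both code for the same subunit position, and the first was the form with more RNA in these macrophages. Of the activators of Arp2/3 or of filament growth, Wasf2 (WAVE2) was at 240 and 315 CPM. It lay above Was (WASP) at 62.4 and 58.5 CPM and Vasp at 53.8 and 47.0 CPM. The intervals of Was and Vasp overlap in the YFP− library and not in the YFP+ library. Coro1a, the coronin of blood cells, lay at 323 and 365 CPM and Coro1b at 104 and 93.8 CPM.

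Of the capping and severing genes, the highest was Capza2, at 372 and 449 CPM, and its paralog Capza1 was low, at 54.6 and 47.6 CPM. Moesin (Msn) was at 195 and 210.0 CPM, while ezrin (Ezr), the linker of epithelial cells, was at 11.6 and 14.1 CPM. The bundling protein of blood cells, Lcp1 (L-plastin), was at 331 and 349 CPM and the crosslinker Flna (filamin A) at 99.7 and 97.5 CPM. Myl6, a myosin light chain, led myosin II at 818 and 927 CPM, whereas the heavy chain Myh9 was low, at 82.7 and 124 CPM, and in YFP+ cells it and the light chain Myl12b had the same count of 840 UMIs. Tln1 (talin, which activates integrins) led the adhesion genes at 167 and 203 CPM, and Vim lay at 240 and 302 CPM.

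Copies limit what some of these counts mean. At the 3′ end, which these libraries read, 26 of the 39 genes shared no stretch of at least 98 bases at 95% identity with the transcript of another gene. Myl6 matched 5 pseudogenes whose own rows held 60.7% (YFP−) and 43.5% (YFP+) as many UMIs as Myl6, and Myl12a and Myl12b matched each other. Tmsb10 matched copies with 18.1% and 7.74% of its UMIs and Capza1 copies with 12.9% and 7.48%, and for Actb, whose 3 copies held 0 UMIs, and Actg1 (1.19% and 0.824%) the share was small. How reads were divided between such copies was not tested, so the levels of Myl6, Myl12a, Myl12b and Was, part of whose end is shared with 6 other genes that held 202% and 245% as many UMIs, are uncertain.

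The promoter of Actg1 is shown because this gene, the second cytoplasmic actin, had a ratio of the opposite sign to that of Actb between shallow and deep cells, given below. It is the stretch of 250 bases before the RefSeq start at chr11:120348496-120348745 (minus strand, GRCm38.p6), written 5′ to 3′. The capitals mark a CArG box, the sequence that serum response factor binds and a known feature of actin gene promoters.
Actg1: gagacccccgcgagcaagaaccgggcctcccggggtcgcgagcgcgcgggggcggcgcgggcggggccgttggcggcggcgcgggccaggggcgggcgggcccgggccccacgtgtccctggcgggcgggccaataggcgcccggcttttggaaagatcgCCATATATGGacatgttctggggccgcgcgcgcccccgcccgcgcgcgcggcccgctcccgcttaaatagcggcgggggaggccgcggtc

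The box begins 90 bases before the start. A CArG box with any choice of A or T at its 6 inner bases, a pattern that reads the same on both strands, was in the 250 bases before a start for 439 of 27025 mouse genes (1.62%) and for 4 of the 36 listed genes with a promoter in the RefSeq table. These were Actg1, Arpc4, Myl6 and Vcl, each with other inner letters, and the match is a description of the sequence only. Actb, Coro1b and Lsp1 had no entry.

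Between the libraries, 3 genes were called higher in YFP+ cells and 0 lower. They were Actb, Capg (a capping protein of macrophages) and Gsn (gelsolin, which severs and caps filaments). Over all 5531 genes compared, 1.54% were called higher and 5.77% lower. Of the 37 listed genes, 27 had a ratio above 0, as did 49.5% of all genes, and the median log2 ratio was 0.16 against 0.00 over all genes. The interval lay above 0 for 18 of them and below 0 for 1 (Tmsb4x, whose sign differed between the bins of depth given below). The share of all genes with such intervals is not given here, and an interval narrows as the UMIs of a gene rise.

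Actb was at 10647 CPM in YFP+ against 5354 CPM in YFP− cells, a log2 ratio of 0.99 (0.96 to 1.02), or 1.99-fold. Capg was at 112 against 64.9 CPM (log2 ratio 0.78, 0.53 to 1.03) and Gsn at 76.6 against 48.0 CPM (0.66, 0.38 to 0.96). Myh9 fell just under the limit, with 124 against 82.7 CPM and a log2 ratio of 0.58 (0.36 to 0.81). The other actin, Actg1 (chr11:120345690-120348542, minus strand), differed little, at 971 against 835 CPM (0.22, 0.15 to 0.29).

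Free RNA, read from the barcodes that held 10 to 100 UMIs, differed in Actb as well. There it was at 9413 CPM (YFP+) against 4158 CPM (YFP−), a log2 ratio of 1.18 (1.13 to 1.23), while Actg1 was at 999 and 966 CPM. With 10% free RNA taken off, the ratio of Actb between the cells of the libraries was 0.97. A cell here is a barcode past the limits on UMIs and genes, and whether barcodes with much Actb were intact cells was not tested. Gsn rested in part on cells that carried RNA of other types: 54 such cells held 122 of its 517 UMIs in the YFP+ library, against 6 of 116 UMIs in 10 cells of the YFP− library, and 1 cell of the YFP+ library alone held 61. Without those cells its log2 ratio was 0.37, under the limit, whereas Actb gave 0.996 and Capg 0.82. Among 75 further genes of actin and microtubules, 57 could be compared, and 1, Acta2 of smooth muscle, was called higher, against 1.54% of all genes. Acta2 was at 48.3 against 2.07 CPM, and it passed the limit on the mean level only through the YFP+ library. It is itself on the mural list given above and held 326 of the 791 UMIs of that list in YFP+ cells. That list is thus not a separate measure of it.

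The gap in Actb depended on the depth of the cell. In cells with 500 to under 1000 UMIs Actb was at 19969 CPM (YFP+) against 6666 CPM (YFP−; log2 ratio 1.58, 1.48 to 1.69). In cells with 1000 to under 2000 UMIs it was at 11875 and 5761 CPM (1.04, 0.98 to 1.10), and in cells with 2000 or more UMIs at 7544 and 5181 CPM (0.54, 0.51 to 0.58), there just under 1.5-fold. Capg differed by 1.13, 0.18 and 1.07 across the same bins, and Myh9 by 0.63, 0.33 and 0.21, all on the log2 scale. Gsn differed by −0.43, 0.67 and 0.79, and Tmsb4x by 0.55 (0.46 to 0.64), 0.10 (0.06 to 0.13) and −0.07 (−0.09 to −0.05). The median over all genes was −0.21, −0.10 and 0.01. The intervals of Capg and Gsn in the first and middle bins and of Myh9 in every bin hold 0. Other listed genes passed 1.5-fold with intervals that leave out 0. In the first bin these were Flna (−1.07, −1.70 to −0.39), Actr2 (1.01, 0.36 to 1.73) and Arpc5 (0.66, 0.09 to 1.30). In the middle bin they were Vasp (−0.87, −1.44 to −0.27) and Arpc2 (0.62, 0.39 to 0.86). The share of all genes past 1.5-fold in each bin is not given here.

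Within a library, shallow cells (500 to under 1000 UMIs) carried more Myh9 and less Actg1, Arpc2 and Capg than deep cells (2000 or more UMIs), in both libraries. For Capg in the YFP− library this rests on 4 UMIs in shallow cells, with an interval that holds 0. Set against cells with 1000 to under 2000 UMIs instead, Actg1 gave −0.04 (YFP−) and −0.26 (YFP+), under the limit in both, and Myh9 0.46, under the limit, and 0.77. In that comparison neither Arpc2 nor Capg was called lower in the YFP+ library. Actb was called higher in shallow cells of the YFP+ library only, and in the YFP− library its ratio was 0.36, or 0.08 with the median of all genes set to 0. The bins held 150 shallow and 607 deep cells in the YFP− and 1184 and 1301 in the YFP+ library. Markers of Schwann cells moved with depth: the 6 genes summed to 4071 CPM in shallow and 468 CPM in deep YFP− cells and to 1531 and 478 CPM in YFP+ cells, all 6 being detected in each, and the median mitochondrial share was 2.56% and 0.82% in YFP− and 1.38% and 0.86% in YFP+ cells. Cells with RNA of other types made up 4.67% of shallow and 0.165% of deep YFP− cells and 2.87% and 0.999% of YFP+ cells. Without such cells Actb gave 1.41 in YFP+ cells and Myh9 1.14 (YFP−) and 1.55 (YFP+), and the part of the rest in these ratios was not tested.

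In the YFP+ library 3 listed genes were called higher in shallow cells, against 13.2% of all genes, and 4 lower, against 4.27%. Actb rose from 7544 CPM in deep to 19969 CPM in shallow cells, a log2 ratio of 1.40 (1.38 to 1.43), while Actg1 was at 1137 in deep and 687 CPM in shallow cells, a ratio of −0.73 (−0.85 to −0.60). The ratios of the actin pair had opposite signs in the same cells. Among cells with under 1% of UMIs on Actb, a check added after the values were seen, Myh9 gave 0.45, under the limit, and Actg1 −0.82. Myh9 (chr15:77760587-77842175, minus strand) was at 81.9 CPM in deep and 245 CPM in shallow cells (1.57, 1.31 to 1.83) and Actr2, an Arp2/3 subunit, at 219 and 354 CPM (0.69, 0.50 to 0.88). Besides Actg1 the lower genes were Capg (−0.78), Myl12b (−0.63) and Arpc2 (−0.61).

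In the YFP− library 3 listed genes were higher in shallow cells, against 36.1% of all genes, and 11 lower, against 16.8%. The median log2 ratio of all genes was 0.28 here, against 0.09 in the YFP+ library, and the median of the 37 listed genes was −0.25, against −0.21. The higher genes were Flna (229 against 87.4 CPM; 1.38, 0.72 to 1.98), Gsn (1.33, from 13 UMIs in shallow cells) and Myh9 (158 against 70.9 CPM; 1.15, 0.36 to 1.86). Relative to the median of all genes, Myh9 and Flna were still 0.86 and 1.09 higher.

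The lower genes of the YFP− library include the most abundant monomer-binding proteins. Tmsb4x was at 9752 CPM in shallow and 18319 CPM in deep cells (−0.91, −0.997 to −0.82), Cfl1 at 651 and 1230.0 CPM (−0.92) and Pfn1 at 871 and 1568 CPM (−0.85). Of the Arp2/3 complex, 4 of 8 genes were called lower, Arpc3 (−0.92), Arpc1b (−0.79), Arpc5 (−0.78) and Arpc2 (−0.63). Actg1 gave −0.67 (−1.05 to −0.31), and Capg, Lsp1 and Capza1 −0.83, −0.75 and −0.68, of which Capg and Capza1 rest on 4 UMIs each in shallow cells and have intervals that hold 0. Actb gave 0.36 (0.26 to 0.47), at 6666 CPM in shallow and 5181 CPM in deep cells.

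**Figure D2:**
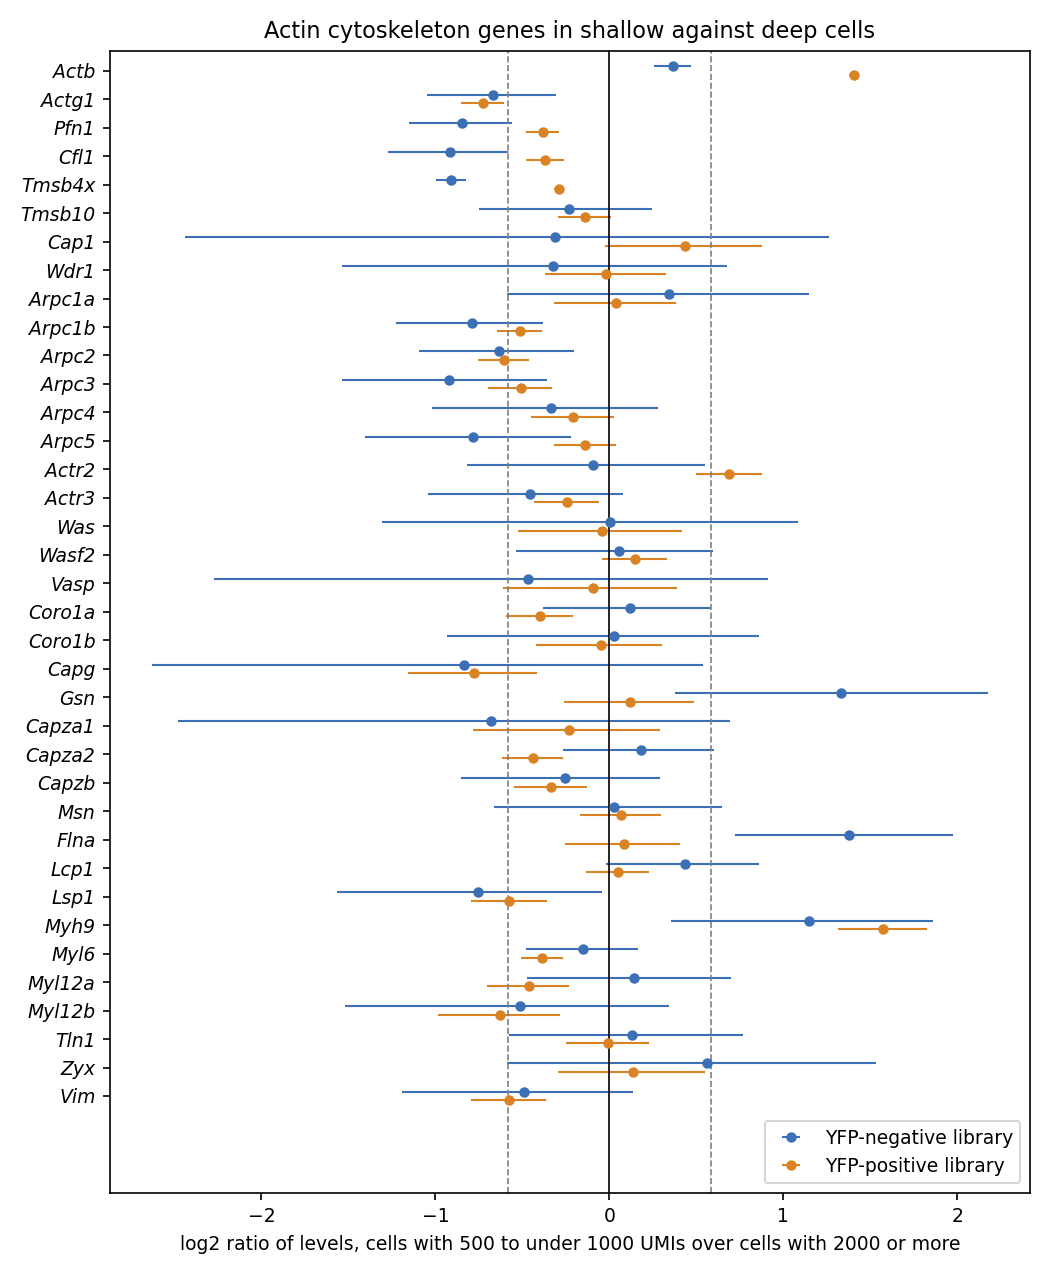
Log2 ratio of the level in cells with 500 to under 1000 UMIs to that in cells with 2000 or more UMIs, for the 37 genes compared, in the YFP− (blue) and YFP+ (orange) library, with exact 95% counting intervals as bars and dashed lines at 1.5-fold. Actb and Myh9 lie to the right in the YFP+ library (1.40 and 1.57), while Actg1 lies to the left in both libraries (−0.67 and −0.73).

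Called in both libraries were Myh9 among the higher genes, as were 7.38% of the genes compared in both, and Actg1, Arpc2 and Capg among the lower, as were 1.40%. Of the 75 further genes, Nckap1l, a WAVE complex subunit of blood cells, was higher in shallow cells of both libraries (0.81 and 0.61) and the tubulin Tuba1c lower. In all, 13 of 54 further genes were higher and 10 lower in shallow YFP− cells, against 36.1% and 16.8% of all genes. In shallow YFP+ cells 4 of 58 were higher and 6 lower, against 13.2% and 4.27%.

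Single cells differed widely in their Actb share. Actb made up a median of 0.288% of a YFP− cell's UMIs (quartiles 0.167% and 0.535%, highest 4.66%) and 0.687% of a YFP+ cell's (0.290% and 2.06%, highest 9.08%). By depth, the medians from shallow to deep cells were 0.377%, 0.305% and 0.274% in YFP− cells, and 1.88%, 0.669% and 0.395% in YFP+ cells. In UMIs rather than shares, a median YFP+ cell held 14, 10 and 11 Actb UMIs across the bins and a median YFP− cell 3, 5 and 8. The mean numbers were 14.9, 17.4 and 20.7 in YFP+ and 5.05, 8.56 and 16.0 in YFP− cells. The mean thus rose with depth less steeply in the YFP+ library, and the median was highest in shallow cells there.

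Cells with at least 1% of their UMIs on Actb, a limit set after the values were seen, numbered 155 of 1045 in the YFP− library (14.8%) and 1765 of 4053 in the YFP+ library (43.5%). Cells of 1 library are not replicates, so no interval is given for these shares. They held 53.2% and 77.1% of all Actb UMIs. They made up among YFP+ cells 68.4% of shallow, 43.4% of middle and 21.1% of deep cells, and in the YFP− library 18.7%, 16.0% and 13.3%. With each cell thinned to 500 UMIs these shares were 70.4%, 45.2% and 24.6%, and 22.7%, 19.1% and 14.7%. Near the limit, between 0.75% and 1.25%, lay 76 YFP− and 365 YFP+ cells, so the shares depend in part on where it was set. Of shallow YFP+ cells 79.4% reached an Actb share of 0.5%, 68.4% reached 1%, 60.1% reached 1.5% and 46.1% reached 2%. Cells there were thus sparser from 1% to 1.5% than on either side, and whether they form separate groups was not tested. In the cells below 1%, Actb was at 2919 CPM (YFP−) and 3694 CPM (YFP+), levels that the limit itself caps, and there the log2 ratio of Myh9 between the libraries was 0.04.

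**Figure D3:**
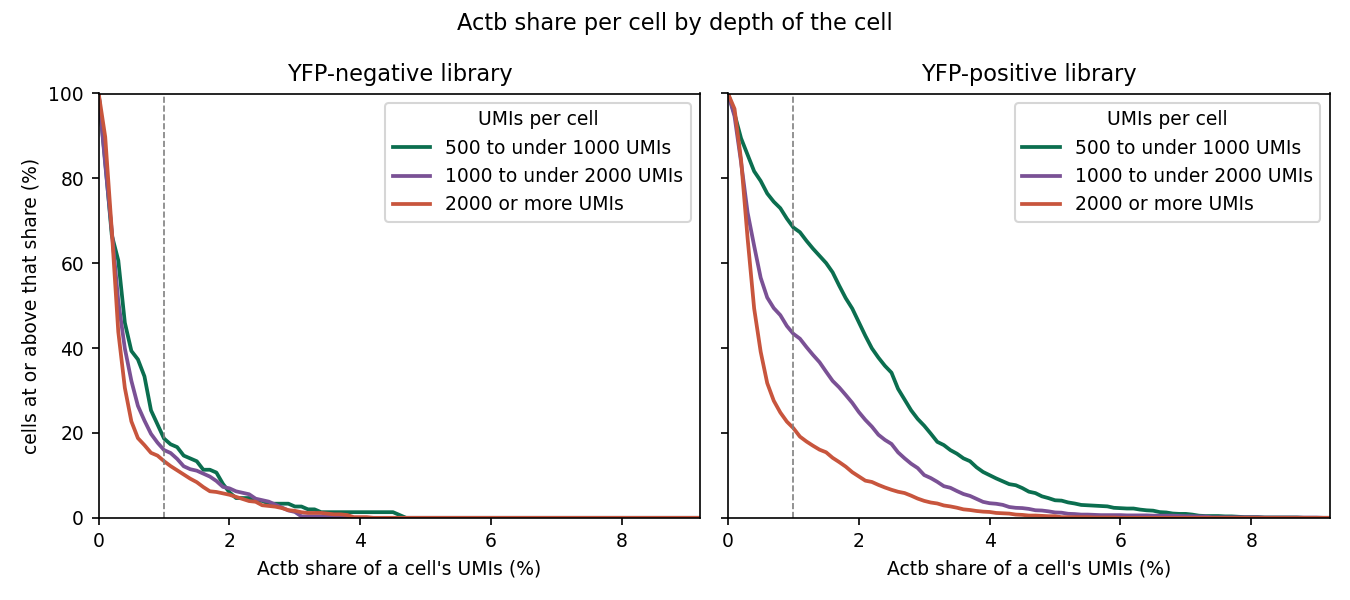
Percent of cells at or above a given Actb share of their UMIs, for cells of 3 depths, in the YFP− (left) and YFP+ (right) library, with a dashed line at 1%. In the YFP+ library the curve of the shallow cells lies above the others at a share of 1% (68.4% of them reach it, against 21.1% of deep cells), and in the YFP− library the gap is smaller (18.7% against 13.3%).

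With each cell thinned to 500 UMIs, the Fano factor (variance divided by mean, near 1 for random sampling) of Actb was 5.20 in YFP− and 7.44 in YFP+ cells, the highest of the listed genes in both, and 7 of 5777 and 6 of 5486 genes had a higher one. Tmsb4x, at a higher level, gave 2.15 and 1.84, and Actg1 1.218 and 1.255, against a median of 1.02 and 1.01 over all genes. Gsn reached 5.26 in the YFP+ and 0.973 in the YFP− library, beside the few cells with many Gsn UMIs described above.

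To find which listed genes went with Actb, the 10% of cells with the highest Actb share were taken within each library and depth bin and set against the other cells, with levels scaled to UMIs other than Actb. This gave 105 against 940 cells in the YFP− library, with median Actb shares of 2.17% and 0.268%, and 405 against 3648 cells in the YFP+ library, with 3.84% and 0.553%. The lowest share among the Actb-high cells was 1.33% in YFP− and 1.96% in YFP+ cells. Since 155 and 1765 cells had at least 1%, many of the other YFP+ cells also carried much Actb. The contrast is thus unlike in the libraries, and the sizes of their ratios cannot be compared directly. Depth was not fully matched by the bins, with median UMIs of 2320 and 2213 in YFP− and 1303 and 1504.5 in YFP+ cells. The part of depth in the ratios below was not tested. Actb itself chose the cells and is no result here. Myh9 and Cap1 were called higher in the Actb-high cells of both libraries, as were 2.34% of the genes compared in both, and no listed gene lower in both, against 0.713%. The interval of Cap1 in the YFP− library holds 0. Actg1 was not called, at 796 against 844 (−0.09, −0.31 to 0.13) in YFP− and 1150 against 964 (0.25, 0.14 to 0.37) in YFP+ cells (CPM of UMIs other than Actb).

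Actb-high YFP+ cells had 3 of 36 listed genes higher, against 6.41% of all genes, and 1 lower, against 3.41%. Myh9 was at 234 in the Actb-high and 115 in the other cells (1.02, 0.76 to 1.28), Cap1 at 66.9 and 42.8 (0.63, 0.13 to 1.10) and Wdr1, a cofactor of cofilin, at 143 and 93.3 (0.62, 0.28 to 0.94). Gsn was lower, at 47.8 and 80.5 (−0.74, −1.31 to −0.22), and of the cells with RNA of other types 2 lay among the Actb-high cells and 52 outside. Without them Gsn gave −0.44, under the limit, and Myh9 1.02.

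Actb-high YFP− cells had 4 listed genes higher, against 12.1% of all genes, and 1 lower, against 9.53%. Myh9 was at 131 and 77.8 (0.74, 0.15 to 1.29) and Flna at 155 and 94.0 (0.72, 0.18 to 1.22). Cap1 (0.60), Capg (0.59) and the lower gene Zyx (−0.92), an adhesion protein, rested on 12, 23 and 8 UMIs in the Actb-high cells, and their intervals hold 0. Across deciles of YFP+ cells ranked by Actb share, Myh9 went from 72.0 in the lowest to 231 in the highest, and Actg1 from 659 to 1151, having reached 1043 by decile 5.

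**Figure D4:**
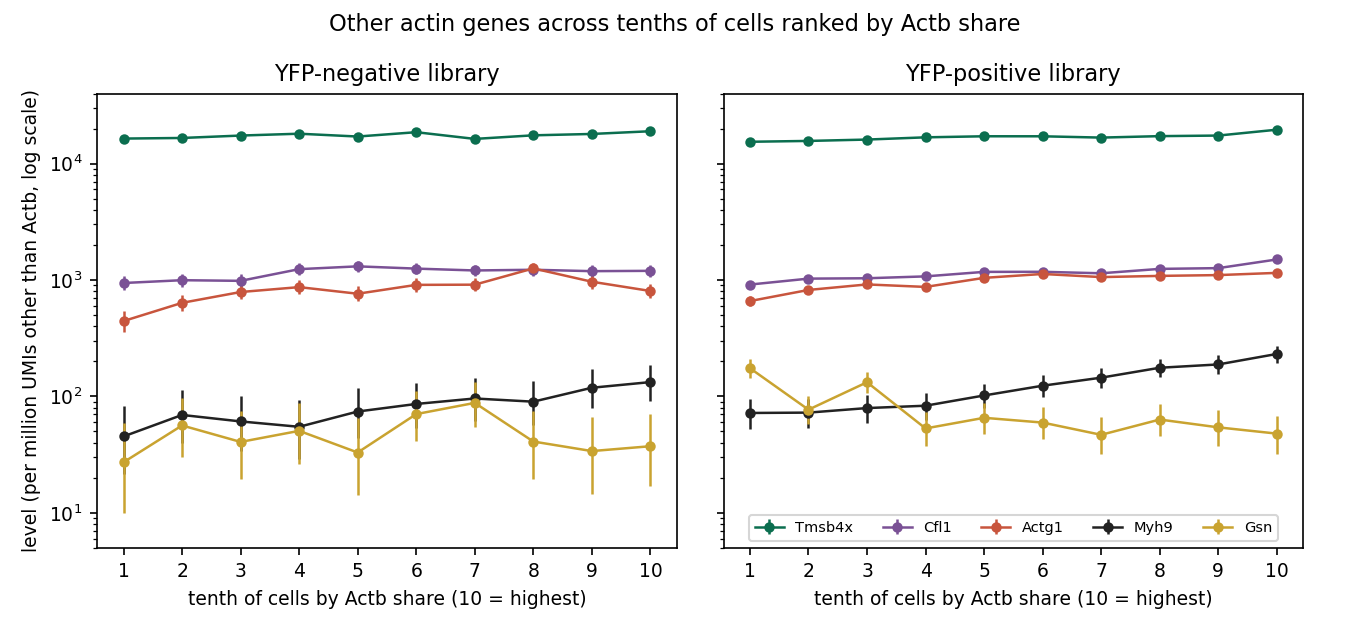
Levels of Tmsb4x, Cfl1, Actg1, Myh9 and Gsn as CPM of UMIs other than Actb, on a log axis, over deciles of cells ranked by Actb share within each depth bin (10 is the highest), in the YFP− (left) and YFP+ (right) library, with exact Poisson 95% intervals as bars. Myh9 is lowest in the first and highest in the last decile of both libraries (45.3 and 133 in YFP−, 72.0 and 231 in YFP+ cells).

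By bin, the Myh9 ratio in YFP+ cells was 0.78 (0.21 to 1.32) in shallow, 1.49 (1.10 to 1.88) in middle and 0.66 (0.17 to 1.13) in deep cells. In YFP− cells it was 1.86 (0.85 to 2.78) in the middle bin, and in the shallow and deep bins the interval holds 0. Cap1 gave 1.08, 1.17 and 0.10 across the YFP+ bins, of which the interval of the middle bin alone lies above 0. Its YFP− call rested on 6 UMIs in the middle bin (2.41), with 0 in the shallow Actb-high cells and −0.09 in the deep bin. The genes outside the list that went most with Actb were Slc39a1, a zinc transporter (3.93 and 1.91 in YFP− and YFP+), Notch2, a Notch receptor (2.43 and 1.46), the unnamed gene 4833421G17Rik (2.73 and 0.95), the histone methyltransferase Kmt2d (2.32 and 1.19) and the transcription factor Nfia (2.07 and 1.38). Slc39a1 and Notch2 were on a list set for Actb-high cells from earlier results of these data, so their rank was known in advance. The limit of 50 CPM was a mean over Actb-high and other cells. In the other cells 4833421G17Rik (15.7 and 29.3), Kmt2d (31.0 and 47.6) and Nfia (14.8 and 35.5) were under it and passed through the Actb-high cells. Nfia rested on 16 UMIs in YFP− Actb-high cells. Of the 75 further genes, Tubb5, a tubulin, was higher in both (0.76 and 1.18), as was Twf1, a monomer-binding protein (0.78 and 0.91). The 8 genes of the response to dissociation summed to 4694 CPM in Actb-high and 6141 CPM in other YFP− cells, and to 5299 and 6930 CPM in YFP+ cells. The cycling list summed to 75.8 and 74.3 CPM in YFP− and 157 and 63.2 CPM in YFP+ cells, and the part of either list was not tested.

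Against free RNA, the cells of both libraries held more Pfn1, Was and Capza1, as did 5.65% of the genes compared in both, and less Arpc1a, as did 4.68%. The median log2 ratio of all genes was −0.14 (YFP−) and −0.10 (YFP+). For the YFP− library 4 listed genes were higher in cells, against 11.6% of all genes, and 2 lower, against 15.1%. For the YFP+ library 4 were higher, against 9.73%, and 3 lower, against 9.55%. Pfn1 was at 1499 CPM in cells and 750 CPM in free RNA of the YFP− library (0.999, 0.88 to 1.12) and at 1480 and 884 CPM in the YFP+ library (0.74, 0.67 to 0.82). Actb differed less, with 0.36 and 0.18, and Tmsb4x was lower in cells, at −0.24 and −0.42, both within 1.5-fold.

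Capza1 gave 1.497 and 1.01 and Was 0.81 and 1.06, while Arpc1a gave −0.75 and −1.01, with 153 and 191 CPM in free RNA. In 1 library only, Cap1 (1.07) and Capg (−0.72) were called in YFP− and Wasf2 (0.77), Gsn (−0.89) and Myl6 (−0.60) in YFP+ cells, and the difference between the libraries was not tested. The listed genes made up 3.57% and 4.39% of free RNA, more than in cells. Of the further genes Diaph1, a formin, was higher in cells of both libraries, and Arpc5l, Gmfb, Tuba1a and Tubb4b were lower.

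Ccr2 and Lyve1 are genes the study used to tell groups of nerve macrophages apart. In the study the cluster marked by Ccr2 was mostly YFP+, and flow cytometry found CCR2 protein on YFP+ macrophages alone. Lyve1 was slightly enriched in another cluster over the Ccr2 cluster. Here cells with a UMI of one gene and none of the other were compared, among cells with 2000 or more UMIs. What the YFP− cells with Ccr2 UMIs are was not tested. Ccr2 cells numbered 58 and 378 and Lyve1 cells 227 and 330 in the YFP− and YFP+ library. Tmsb10, Capg, Lsp1, Vim and Gsn were called higher in Ccr2 cells of both libraries, as were 2.51% of the genes compared in both, and no listed gene was called lower in both, against 3.21%. Free RNA can give a cell a UMI of either gene, so the groups rest on detection and their purity was not tested.

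Ccr2 cells of the YFP+ library had 6 listed genes higher, against 5.86% of all genes, and 0 lower, against 8.29%. Capg was at 221 CPM in Ccr2 and 84.6 CPM in Lyve1 cells (1.37, 0.996 to 1.77), Vim at 455 and 223 CPM (1.03, 0.79 to 1.27), Lsp1, an actin-binding protein of leukocytes, at 466 and 234 CPM (0.99, 0.75 to 1.23) and Tmsb10 at 663 and 337 CPM (0.97, 0.78 to 1.17). Gsn gave 0.64 (0.10 to 1.197) and Zyx 0.62 (0.06 to 1.197). Actg1 and Coro1a lay under the limit, at 0.48 (0.36 to 0.61) and 0.55 (0.34 to 0.76).

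Ccr2 cells of the YFP− library had 8 higher, against 16.7% of all genes, and 2 lower, against 16.1%. Tmsb10 was at 794 and 300 CPM (1.40, 1.10 to 1.70), Capg at 142 and 55.1 CPM (1.35, 0.60 to 2.07), Lsp1 at 506 and 204 CPM (1.31, 0.93 to 1.68) and Coro1a at 566 and 303 CPM (0.90, 0.56 to 1.23). Vim gave 0.71 (0.29 to 1.11), Actg1 0.63 (0.42 to 0.85), Wdr1 0.64 and Gsn 0.59, of which the last pair have intervals that hold 0, as do the lower genes Cap1 (−0.95, from 3 UMIs in Ccr2 cells) and Coro1b (−0.70). Among cells with 1000 to under 2000 UMIs, Lsp1 in the YFP− library (−0.24) and Gsn in the YFP+ library (−0.03) were not higher in Ccr2 cells. There the YFP− ratios of Tmsb10 (0.37), Vim (0.01), Actg1 (0.26) and Coro1a (0.38) also fell under the limit, while Capg gave 1.03 (YFP−) and 1.42 (YFP+), and in YFP+ cells Lsp1, Vim and Tmsb10 gave 1.22, 0.87 and 0.62.

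Actb was not called between these groups, at 7258 and 5690 CPM (0.35) in YFP− and 8549 and 6902 CPM (0.31) in YFP+ cells, though among cells with 1000 to under 2000 UMIs it gave 0.81 in the YFP− library, past the limit, and 0.11 in the YFP+ library. Tmsb4x was at −0.08 and 0.07 and the 8 Arp2/3 genes lay between −0.20 and 0.27 in both libraries. Of the 75 further genes, Tuba1a, Tuba1b, Tuba1c, Tubb4b and Twf2 were higher in Ccr2 cells of both libraries, and Twf1 was among those lower in both. Among them the tubulin Tubb4b gave 2.54 and 1.495 and Twf1 −1.13 and −0.71. The check without cycling cells, given below, does not cover these further genes.

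Markers of cycling cells moved with these groups, as the 5 genes summed to 319 and 44.1 CPM in YFP− and 170 and 25.1 CPM in YFP+ cells, Ccr2 cells being given before Lyve1 cells. Without cells that had a UMI of them, a check added after the values were seen, Tmsb10 gave 1.33 and 0.92, Capg 1.33 and 1.35, Lsp1 1.23 and 1.04 and Vim 0.42 and 0.90, and the calls of Vim and of Gsn (0.38) in YFP− cells were lost. The endothelial list moved the other way, at 15.2 and 135 CPM and at 16.6 and 101 CPM, and most of it was Egfl7 (199 of 220 and 356 of 412 UMIs over all cells). All 6 mural markers were at 0 in YFP− Ccr2 cells and summed to 10.1 and 10.3 CPM in the YFP+ groups.

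**Figure D5:**
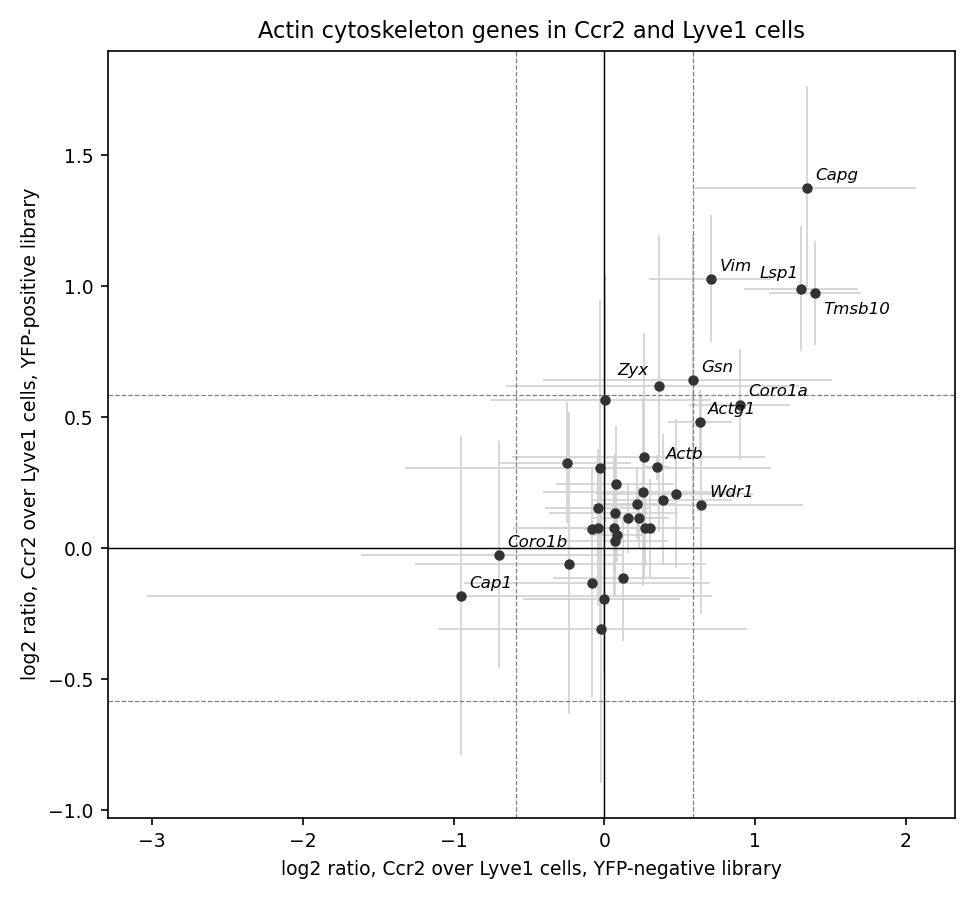
Log2 ratio of the level in Ccr2 cells to that in Lyve1 cells, among cells with 2000 or more UMIs, in the YFP− library (x axis) against the YFP+ library (y axis), for the 37 genes compared, with exact 95% counting intervals in grey and dashed lines at 1.5-fold. Capg, Lsp1, Tmsb10 and Vim lie toward the upper right (for Capg 1.35 and 1.37), and most others lie near 0 on both axes.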

How the data were processed

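The authors deposited unnormalized UMI counts, a gene by barcode matrix for each of 1 YFP− and 1 YFP+ library, with empty barcodes kept. They mapped 10x v2 reads to GRCm38 with Cell Ranger, version 3.0.2 in the submitters' processing notes, while the study's methods name an earlier version. Their annotation release is not given in the sources used here. Groups follow the sample titles. Cells were barcodes with at least 500 UMIs and 200 genes, and doublets were kept. Counts were summed over cells and scaled to CPM, and ratios used a pseudocount of 1 CPM. Level intervals are exact Poisson and ratio intervals exact binomial (Clopper-Pearson). A gene under 3 counts, 1.24 CPM (YFP−) or 0.445 CPM (YFP+), was read as under the floor. No test was possible. Python 3.11.15, numpy 2.4.6, scipy 1.17.1, pandas 2.3.3, matplotlib 3.10.9 and blastn 2.17.0 were used, with ratios checked on simulated data. Copies were sought with the last 500 bases of coding transcripts of GENCODE M21, and promoters come from RefSeq.

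The members and gene lists were chosen with earlier results of these data known. The genes named are members past 1.5-fold in a comparison or highest or lowest in their role, and up to 6 further genes called in both libraries. Also named are 5 genes with the largest mean ratio over the libraries in Actb-high cells. These 5 were outside the lists, save a list set for Actb-high cells. They had a mean of at least 50 CPM over Actb-high and other cells of both libraries. Other genes named, such as Myh9 and Actg1 in the comparison of the libraries, Acta2 and the list of further genes beyond that rule, were chosen after their values were seen. The alternatives changed cells, depth bins, scaling, pseudocount, filter, free RNA and the defining UMIs. One gene of the further list is not reported here.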

Additional observations from a re-analysis of the deposited data

How the results depend on the processing

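Each group was 1 library of pooled mice, so no value separates the sort from the library, and counts of few UMIs leave wide intervals. No paired analysis was possible because each group has 1 library. The 3 genes called between the libraries numbered 2 to 4 under every alternative tried, but were not always the same genes. Over the alternatives the log2 ratio ran from 0.34 to 1.27 for Actb, 0.65 to 0.88 for Capg and 0.20 to 0.89 for Gsn. Of these, Capg alone stayed past 1.5-fold throughout. Of the calls by depth, 14 in the YFP− library became 7 and 7 in the YFP+ library became 3 when shallow cells were set against cells with 1000 to under 2000 UMIs, and the 7 became 11 with the median of all genes set to 0 and 14 (1 higher, 13 lower) in cells with under 1% of UMIs on Actb, a limit that itself caps Actb; that last alternative was added after the data were seen. With that median at 0 the 14 of the YFP− library became 21, of which 18 were lower. The share of all genes called under each alternative is not given here, so these counts are no result about the listed genes. The median Actb share became 0.2% and 0.8% after thinning each cell to 500 UMIs, and 0.485% in YFP+ cells with at least 1000 UMIs. In the Actb-high cells, a pseudocount of 10 CPM left 3 calls of 5 in the YFP− and 2 of 4 in the YFP+ library, and 2 of 4 remained in number in the latter without cells with RNA of other types. In cells with 1000 to under 2000 UMIs, the ratio of Ccr2 to Lyve1 cells turned to −0.24 for Lsp1 and −5.04 for Gsn in the YFP− library, the latter with 0 Gsn UMIs on one side and so no measured fold, and to −0.028 for Gsn in the YFP+ library. The Gsn ratio between the libraries was 0.20 with depth bins and 0.52 with cells weighing the same, 0.58 with a pseudocount of 10 CPM or with 10% free RNA taken off, and 0.37 without cells with RNA of other types, all under 1.5-fold. The cause of these changes was not tested.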
